A study of Mus musculus with 8 samples.

Results

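The 10 heat shock protein and chaperone genes described here were followed across granulocyte progenitors (GPs) that differed in genotype and in surface Flt3. They were chosen by name as inducible and constitutive members of the main chaperone families, namely Hspa1a, Hspa1b, Hspa5, Hspa8, Hsph1, Hsp90aa1, Hsp90ab1, Dnajb1, Hspd1 and Hspe1. Earlier results of these data were known when they were chosen. They are 10 of the 20284 gene symbols that the array probes could be given. Probes were taken by the RefSeq accession in their annotation. Of the 10 members, 9 had at least 1 probe, with 14 probes in all. Hspa1b had none and was not analysed here.

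RNA came from GPs sorted from mouse bone marrow. The groups were Irf8KO Flt3+ GPs, WT Flt3+ GPs, Irf8KO Flt3- GPs and WT Flt3- GPs, with 2 one-colour arrays each, 1 array from each of 2 experiments. Irf8KO mice are labelled as lacking Irf8, which encodes a myeloid and lymphoid transcription factor, and WT mice are wild type. Flt3 is a cytokine receptor on early progenitors. The labels give no age, sex, sort gate or number of animals per sample, and they do not say which part of Irf8 is deleted. The p-values therefore rest on how far arrays of a group lie apart, and that distance may be technical.

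Chaperones bind unfolded protein and help it to fold, refold or reach the protease. HSP70 proteins bind and release short stretches of a client by an ATP cycle, J-domain proteins start the cycle, and nucleotide exchange factors such as HSP110 end it. HSP90 takes later folding steps of kinases and receptors, and the HSP60 ring with its HSP10 lid folds proteins in the mitochondrial matrix. BiP, encoded by Hspa5, is the HSP70 of the endoplasmic reticulum (ER). Heat shock factor 1 induces the cytosolic set under heat and other stress, and the unfolded protein response induces the ER set. Progenitors of granulocytes make large amounts of secreted granule proteins, which fold in the ER.

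Each value is the log2 of a signal over its array's 75th percentile. Values can be compared between groups for a probe, not between probes. Differences come from limma fitted to all 8 arrays and 14109 genes, and a gene was called at a Benjamini-Hochberg adjusted p under 0.05. On each array no spot was saturated, and 54.9 to 60.1% of spots were well above background. All 14 member probes were well above background on all 8 arrays, so all 9 members with a probe passed the filter on dim probes in every group. The number of arrays limits the precision. All arrays lay on 1 slide in 1 scan, with WT arrays in row 1, Irf8KO arrays in row 2 and the Flt3 populations in separate columns, so slide position and group cannot be told apart.

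As a check of the labels, Irf8 RNA was higher on the arrays labelled Irf8KO than on the WT arrays. The log2 difference was 0.84 ± 0.05 (SE) in Flt3+ GPs (1.79-fold, limma adjusted p = 0.000226) and 0.72 ± 0.05 in Flt3- GPs (1.65-fold, limma adjusted p = 0.000399). This goes against the label if the probe lies in the deleted part, and the sources used here do not say which part that is. All directions by genotype below are therefore those of the arrays labelled Irf8KO. Flt3 RNA followed the sort, 12.1-fold higher in Flt3+ than in Flt3- GPs of Irf8KO mice and 23.2-fold higher in Flt3+ than in Flt3- GPs of WT mice. All 6 markers of granulocyte progenitors (Elane, Mpo, Prtn3, Ctsg, Ms4a3 and Prss57) were well above background in all 4 groups.

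Hspa1a encodes the stress-inducible cytosolic HSP70. Its signal was -3.02 and -2.96 on the Irf8KO Flt3+ arrays, against -4.89 and -4.56 on the WT Flt3+ arrays. It was -2.95 and -3.02 on the Irf8KO Flt3- arrays, against -3.62 and -3.51 on the WT Flt3- arrays. The WT Flt3+ arrays were the lowest, the WT Flt3- arrays were next, and the ranges of the 2 Irf8KO groups overlapped. The difference between Irf8KO and WT was 1.74 ± 0.11 log2 in Flt3+ GPs (3.33-fold, limma adjusted p = 0.000292). In Flt3- GPs it was 0.58 ± 0.11 log2 (limma adjusted p = 0.00928), a call that was lost without WT Flt3- replicate 1 (adjusted p = 0.0508) and without Irf8KO Flt3- replicate 1 (adjusted p = 0.0501). The probe was dim, with signals of 15.9 to 53.1 before scaling. Under the normexp background correction its differences were 0.79 log2 in Flt3+ and 0.37 log2 in Flt3- GPs. That correction was run with an offset of 50, which by itself shrinks log2 differences of a probe this dim, so these smaller values were partly built in. Hspa1a and its neighbour Hspa1b are near-identical copies, so the Hspa1a probe can carry signal of both.

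The promoter of Hspa1a shows how close the copies are and where the heat shock element lies. The RefSeq window of Hspa1a (GRCm38.p6, 250 bases before to 50 bases after the start site, minus strand of chromosome 17) differs from that of Hspa1b at 4 of 300 positions. In both, the inverted pair GAANNTTC of the heat shock element starts 104 bases before the start site. The pair is printed in capitals, was searched on both strands, and occurs in 7.86% of 32851 such windows.
Hspa1a, chr17:34972107-34972406: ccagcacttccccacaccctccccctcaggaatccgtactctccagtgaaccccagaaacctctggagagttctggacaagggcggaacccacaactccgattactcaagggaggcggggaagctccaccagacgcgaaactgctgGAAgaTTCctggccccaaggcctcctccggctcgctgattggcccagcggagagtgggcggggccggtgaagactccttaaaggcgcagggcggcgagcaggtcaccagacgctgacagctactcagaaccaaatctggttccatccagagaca

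**Figure D1:**
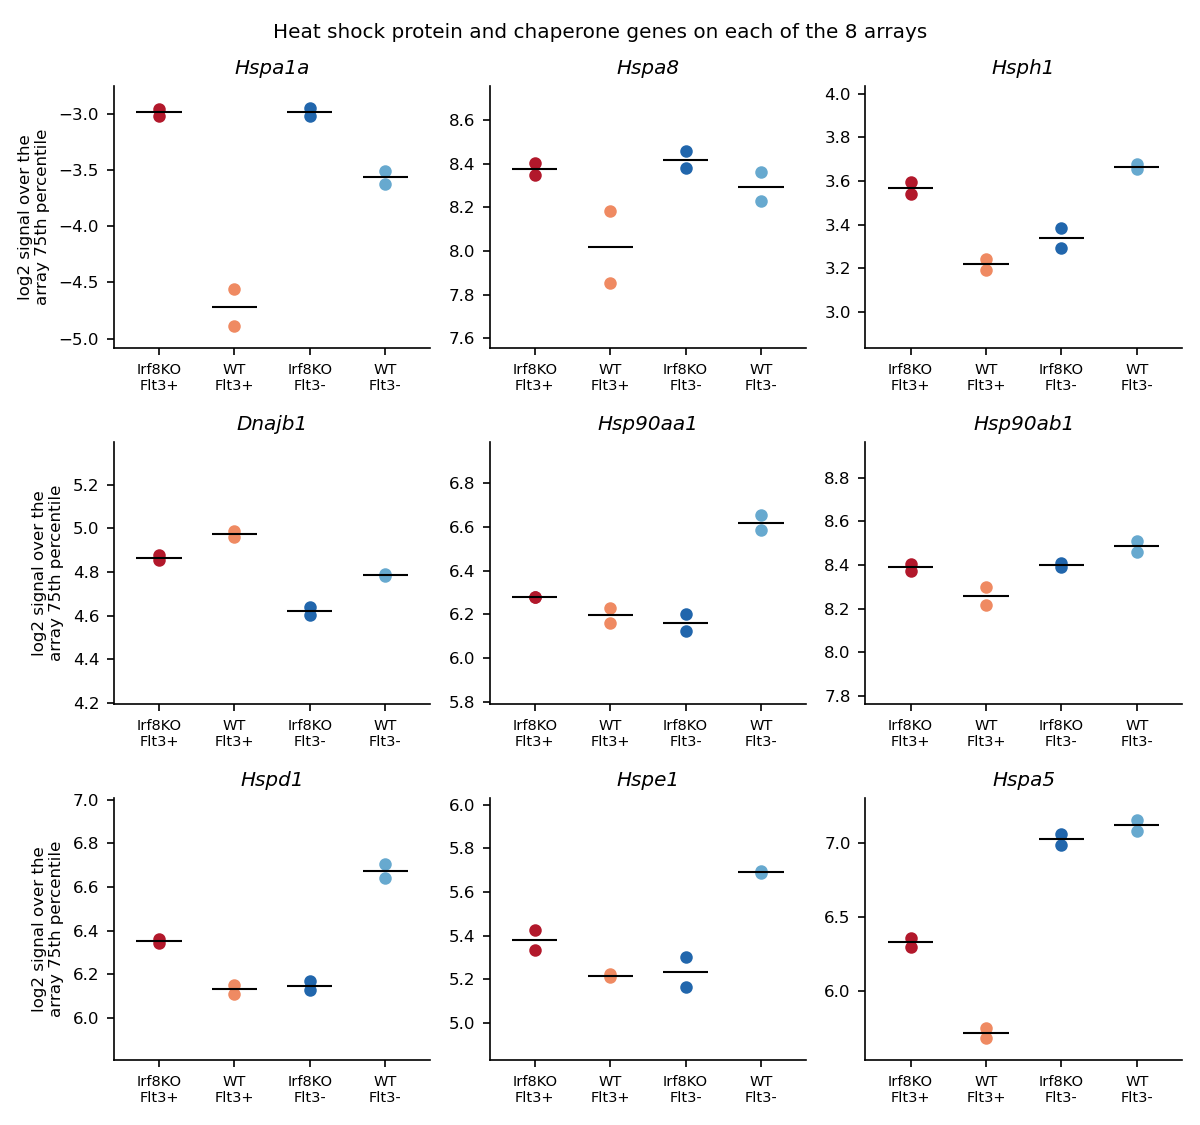
Log2 signal over the 75th percentile of the array for the 9 measured genes on each of the 8 arrays, with groups from left to right Irf8KO Flt3+, WT Flt3+, Irf8KO Flt3- and WT Flt3- GPs. Points are arrays (2 per group), bars are group means, and each panel has its own axis range, since levels cannot be compared between probes. Hspa5, Hsph1, Hsp90aa1, Hsp90ab1, Hspd1 and Hspe1 have their highest points on the WT Flt3- arrays. Hspa1a and Hspa5 have their lowest on the WT Flt3+ arrays.

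Hspa8 encodes the constitutive cytosolic HSP70. Its brightest probe read 8.40 and 8.35 on the Irf8KO Flt3+ arrays, against 8.19 and 7.86 on the WT Flt3+ arrays. It read 8.46 and 8.38 on the Irf8KO Flt3- arrays, against 8.36 and 8.23 on the WT Flt3- arrays. The WT Flt3+ arrays were lowest and also stood furthest apart. The genotype difference in Flt3+ GPs was 0.36 ± 0.11 log2 and did not pass the test (limma adjusted p = 0.065). It passed with the experiment number as a block (adjusted p = 0.0336) without WT Flt3+ replicate 1 (0.52 log2, adjusted p = 0.0139), under normexp (0.30 log2, 0.0438), with probes above background on all arrays only (0.047) and as the mean over its probes (0.00459). In Flt3- GPs the genotype difference was 0.12 ± 0.11 log2 (limma adjusted p = 0.426).

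The other probes of Hspa8 read differently from the brightest one. Fitted probe by probe, they differed by 0.45 ± 0.06 and 0.25 ± 0.04 log2 between Irf8KO and WT Flt3+ GPs (limma adjusted p = 0.0047 and 0.0112). In Flt3- GPs both were below 0, at -0.19 ± 0.06 and -0.13 ± 0.04 log2 (limma adjusted p = 0.0523 and 0.0532), while the brightest probe was above 0. The probes of Hspe1 and of Hsph1 had the same calls within each gene in those contrasts.

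**Figure D2:**
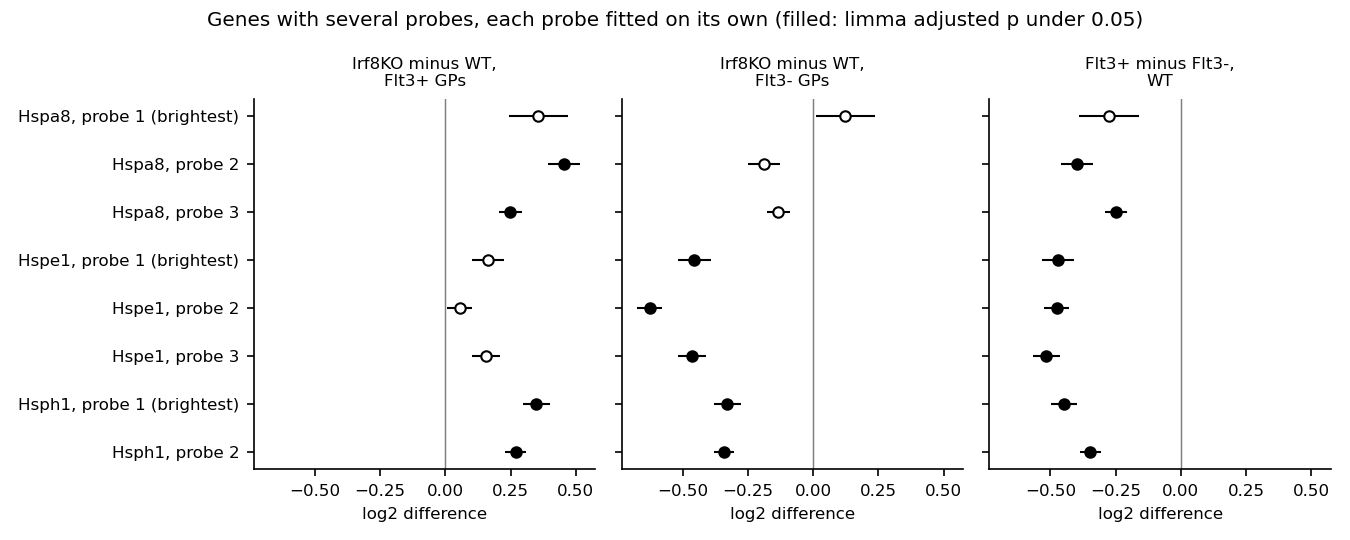
Log2 differences with their standard errors for each probe of Hspa8, Hspe1 and Hsph1, each fitted on its own, with the tested contrast named above each panel. Filled points passed limma at adjusted p under 0.05; in Flt3- GPs the brightest Hspa8 probe lies on the other side of 0 from the other 2 probes, and the 3 Hspe1 probes all lie below 0.

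Hsph1 encodes an HSP110, a nucleotide exchange factor of HSP70. Its signal was 3.54 and 3.59 on the Irf8KO Flt3+ arrays, against 3.19 and 3.24 on the WT Flt3+ arrays. It was 3.29 and 3.38 on the Irf8KO Flt3- arrays, against 3.65 and 3.68 on the WT Flt3- arrays. The groups did not overlap in either population, and the order of the genotypes was opposite in the 2 populations. Hsph1 rose by 0.35 ± 0.05 log2 in Irf8KO Flt3+ GPs (1.27-fold, limma adjusted p = 0.00548). It fell by 0.33 ± 0.05 log2 in Irf8KO Flt3- GPs (1.26-fold lower, limma adjusted p = 0.00406).

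Dnajb1 encodes an HSP40, the J-domain partner of cytosolic HSP70. Its signal was 4.85 and 4.88 on the Irf8KO Flt3+ arrays, against 4.96 and 4.99 on the WT Flt3+ arrays. It was 4.60 and 4.64 on the Irf8KO Flt3- arrays, against 4.79 and 4.78 on the WT Flt3- arrays. Dnajb1 was the one member with a lower mean on Irf8KO arrays in both populations, though under quantile normalization Hsp90aa1 (-0.034 and -0.34 log2) and Hsp90ab1 (-0.076 and -0.21 log2) were lower in both too. The difference was -0.11 ± 0.04 log2 in Flt3+ GPs (limma adjusted p = 0.088, and 0.00871 under quantile normalization and 0.0445 under median centring, where it was called) and -0.17 ± 0.04 log2 in Flt3- GPs (limma adjusted p = 0.0183). The Flt3- call was lost without WT Flt3- replicate 1 (adjusted p = 0.0994), without WT Flt3- replicate 2 (0.0885) and without Irf8KO Flt3- replicate 1 (0.0786), under normexp (0.0701) and without a filter (0.0511), and under quantile normalization the value was -0.0029 log2 (adjusted p = 0.959).

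Hsp90aa1 and Hsp90ab1 encode the inducible and the constitutive cytosolic HSP90. Hsp90aa1 was 6.28 and 6.28 on the Irf8KO Flt3+ arrays, against 6.23 and 6.16 on the WT Flt3+ arrays. It was 6.20 and 6.12 on the Irf8KO Flt3- arrays, against 6.66 and 6.58 on the WT Flt3- arrays. Under this scaling the WT Flt3- arrays stood above the other 6. After quantile normalization WT Flt3- replicate 2 (15.14 log2) lay below WT Flt3+ replicate 1 (15.15 log2). Hsp90aa1 fell by 0.46 ± 0.05 log2 in Irf8KO Flt3- GPs (1.37-fold lower, limma adjusted p = 0.0015), and its difference in Flt3+ GPs was 0.08 ± 0.05 log2 (limma adjusted p = 0.272). Hsp90ab1 was 8.40 and 8.37 on the Irf8KO Flt3+ arrays, against 8.30 and 8.22 on the WT Flt3+ arrays. It was 8.41 and 8.39 on the Irf8KO Flt3- arrays, against 8.51 and 8.46 on the WT Flt3- arrays. Its genotype differences, 0.13 ± 0.05 log2 in Flt3+ GPs (limma adjusted p = 0.0905) and -0.08 ± 0.05 log2 in Flt3- GPs (limma adjusted p = 0.201), did not pass the test. Under quantile normalization its Flt3- value, -0.21 log2, was called (adjusted p = 0.00919).

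Hspd1 and Hspe1 encode the mitochondrial chaperonin HSP60 and its cochaperonin HSP10. Hspd1 was 6.34 and 6.36 on the Irf8KO Flt3+ arrays, against 6.11 and 6.15 on the WT Flt3+ arrays. It was 6.17 and 6.13 on the Irf8KO Flt3- arrays, against 6.71 and 6.64 on the WT Flt3- arrays. As with Hsp90aa1 under this scaling, the WT Flt3- arrays were the highest of the 8. Hspd1 fell by 0.52 ± 0.05 log2 in Irf8KO Flt3- GPs (1.44-fold lower, limma adjusted p = 0.000676). In Irf8KO Flt3+ GPs it was higher by 0.22 ± 0.05 log2 (1.17-fold, limma adjusted p = 0.0167). That call was lost without WT Flt3+ replicate 1 (adjusted p = 0.061), without Irf8KO Flt3+ replicate 1 (0.0697), without Irf8KO Flt3+ replicate 2 (0.0904) under quantile normalization (0.12 log2, adjusted p = 0.061), under normexp (0.0515) and with only the groups compared (0.0625).

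Hspe1 was 5.33 and 5.43 on the Irf8KO Flt3+ arrays, against 5.22 and 5.21 on the WT Flt3+ arrays. It was 5.30 and 5.17 on the Irf8KO Flt3- arrays, against 5.69 and 5.68 on the WT Flt3- arrays. Its pattern followed that of Hspd1, with the WT Flt3- arrays highest. Hspe1 fell by 0.45 ± 0.06 log2 in Irf8KO Flt3- GPs (1.37-fold lower, limma adjusted p = 0.00256; -0.27 log2 under quantile normalization), and its difference in Flt3+ GPs was 0.16 ± 0.06 log2 (limma adjusted p = 0.0965). Over the 8 arrays, which share 4 groups, Pearson's r was 0.98 between Hspd1 and Hspe1, 0.968 between Hspd1 and Hsp90aa1, and 0.224 between Hspd1 and Hspa1a, given as a description.

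Hspd1 and Hspe1 lie head to head on chromosome 1 and share a promoter region. One Hspd1 window and the Hspe1 window overlap by 285 bases on opposite strands. The shared stretch holds the heat shock element with 3 units, the pair GAANNTTC followed after 2 bases by GAA or the reverse complement of the whole, searched on both strands. Its first match starts 89 bases before the start site of Hspe1 and overlaps a second that starts 84 bases before it, and the 4 units are in capitals. Of all windows 0.603% hold such a 3-unit match. A window of Hsph1 also holds one, at base 16 after its start site, and a 2-unit match, TTCNNGAA, 54 bases before it, and TTCNNGAA was found in 8.52% of windows. The windows of Dnajb1 held none of these letters, and Hspa8, Hsp90aa1 and Hsp90ab1 had no entry. A match describes letters and not a bound site. The 2 sequences are shown for their 3-unit matches. By genotype in Flt3- GPs Hspd1, Hspe1 and Hsph1 were called lower, as was Dnajb1, whose windows held no match. Hspa1a, with a 2-unit match, was called higher there, and a link of matches to values was not tested.
Hspe1, plus strand, chr1:55087898-55088197: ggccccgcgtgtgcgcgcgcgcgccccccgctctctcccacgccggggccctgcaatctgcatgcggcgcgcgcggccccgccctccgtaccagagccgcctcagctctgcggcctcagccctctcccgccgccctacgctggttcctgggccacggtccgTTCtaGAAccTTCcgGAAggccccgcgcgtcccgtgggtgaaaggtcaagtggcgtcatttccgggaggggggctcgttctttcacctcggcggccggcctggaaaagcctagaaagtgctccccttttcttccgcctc
Hsph1, minus strand, chr5:149636266-149636565: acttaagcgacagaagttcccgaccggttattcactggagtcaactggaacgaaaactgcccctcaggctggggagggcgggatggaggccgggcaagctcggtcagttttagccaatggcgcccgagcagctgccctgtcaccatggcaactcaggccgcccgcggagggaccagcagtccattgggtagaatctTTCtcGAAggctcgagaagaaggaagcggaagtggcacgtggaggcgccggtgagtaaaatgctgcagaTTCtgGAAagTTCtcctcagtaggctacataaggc

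Hspa5 encodes BiP, the HSP70 of the ER and a main target of the unfolded protein response. Its signal was 6.30 and 6.36 on the Irf8KO Flt3+ arrays, against 5.68 and 5.75 on the WT Flt3+ arrays. It was 7.06 and 6.99 on the Irf8KO Flt3- arrays, against 7.15 and 7.08 on the WT Flt3- arrays. Both Flt3- groups lay above both Flt3+ groups, and the genotypes were clearly apart in Flt3+ GPs. Hspa5 rose by 0.61 ± 0.05 log2 in Irf8KO Flt3+ GPs (1.53-fold, limma adjusted p = 0.000888), and its difference in Flt3- GPs was -0.09 ± 0.05 log2 (limma adjusted p = 0.213). Its RefSeq promoter window is shown because it holds the ER stress response element, CCAAT and CCACG with 9 bases between them, 65 bases before the start site, with both in capitals. The element, searched on both strands, was found in 0.119% of all windows.
Hspa5, plus strand, chr2:34771840-34772139: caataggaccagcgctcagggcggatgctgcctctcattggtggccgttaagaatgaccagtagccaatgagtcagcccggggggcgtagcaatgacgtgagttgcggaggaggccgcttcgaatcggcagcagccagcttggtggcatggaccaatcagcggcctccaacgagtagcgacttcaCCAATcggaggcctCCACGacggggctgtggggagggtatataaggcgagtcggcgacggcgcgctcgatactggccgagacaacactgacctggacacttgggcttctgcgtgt

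Counted together, 4 of the 9 members measured were called higher and 0 lower in Irf8KO than in WT Flt3+ GPs, where 29% of all genes tested were called, 16.5% higher and 12.5% lower. The 4 were Hspa1a, Hspa5, Hsph1 and Hspd1. The median log2 difference was 0.22 over the members (0.12 under quantile normalization, where 3 were called higher and 1 lower) and 0.04 over all genes. In Irf8KO against WT Flt3- GPs, 1 member (Hspa1a) was called higher and 5 lower (Hspd1, Hsp90aa1, Hspe1, Hsph1 and Dnajb1), where 43.6% of all genes were called, 16.5% higher and 27.2% lower. The median was -0.17 over the members (-0.21 under quantile normalization) and -0.03 over all genes.

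The genotype difference itself differed between the populations. The difference in Flt3+ GPs minus that in Flt3- GPs was called above 0 for 6 of 9 members and below 0 for 0, while 30.9% of all genes were called, 21.4% above 0 and 9.45% below. The median was 0.62 log2 over the members (0.31 under quantile normalization) and 0.07 log2 over all genes. It was 1.15 ± 0.16 log2 for Hspa1a (limma adjusted p = 0.00575), 0.75 ± 0.06 for Hspd1 (0.00188) and 0.71 ± 0.08 for Hspa5 (0.00322). It was 0.68 ± 0.07 log2 for Hsph1 (limma adjusted p = 0.00296), 0.62 ± 0.09 for Hspe1 (0.00575) and 0.54 ± 0.07 for Hsp90aa1 (0.00531). These 6 calls held under all 8 other settings tried and without any 1 array, but 3 values moved by over 1.5 times. Under quantile normalization Hspe1 was at 0.31 log2 (adjusted p = 0.0291) and Hsp90aa1 at 0.30 log2 (0.0237). Hspa1a was at 0.42 log2 (0.0148) under normexp, whose offset by itself shrinks differences of its dim probe. Hsp90ab1 had a value of 0.22 ± 0.07 log2 (limma adjusted p = 0.058), which passed with the experiment number as a block (adjusted p = 0.0436), with probes above background on all arrays only (0.0493) and without WT Flt3+ replicate 1 (0.0461). Hspa8 (0.23 ± 0.16, limma adjusted p = 0.322) and Dnajb1 (0.06 ± 0.06, 0.487) did not pass. Hspa8 passed at 0.40 log2 without WT Flt3+ replicate 1 (adjusted p = 0.0469) and at 0.42 log2 as the mean over its probes (0.00877), and under quantile normalization Dnajb1 turned to -0.21 log2 (adjusted p = 0.031).

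**Figure D3:**
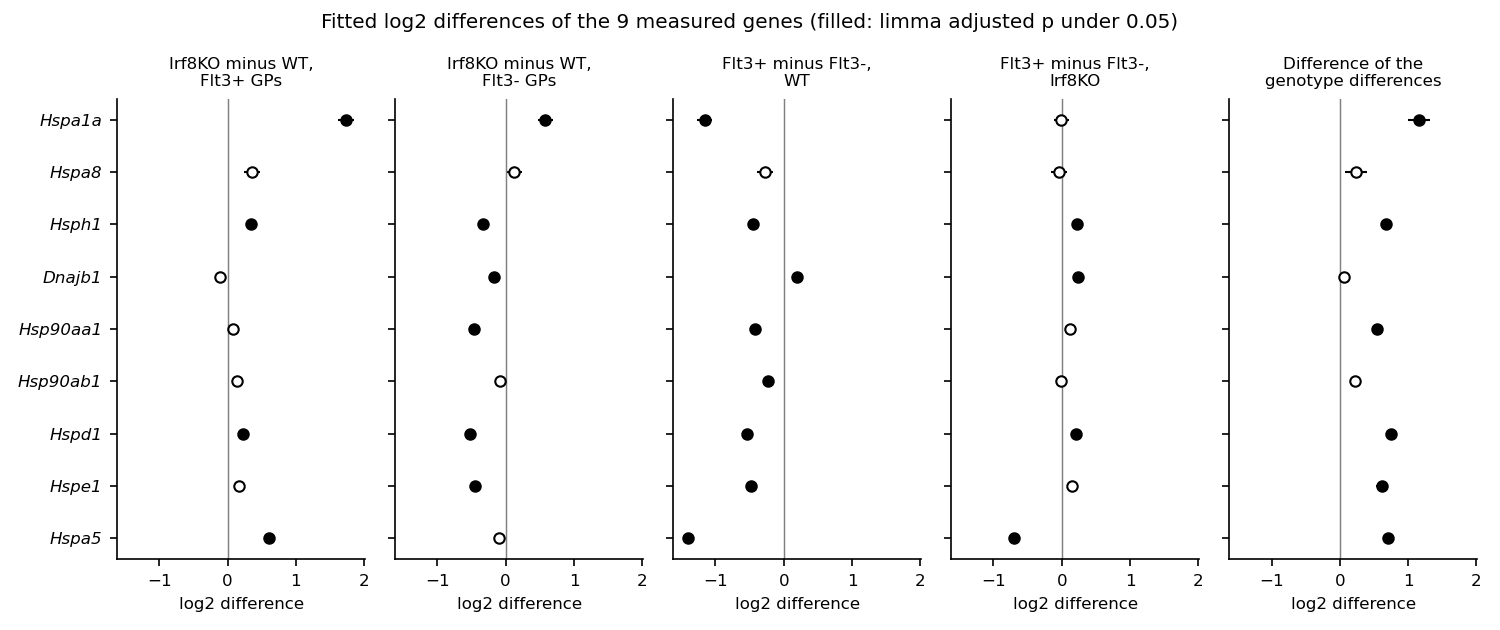
Log2 differences with their standard errors (often smaller than the point) for the 9 measured genes in the 4 contrasts and in the difference of the genotype differences, Flt3+ minus Flt3-. Filled points passed limma at adjusted p under 0.05; in the last panel 6 genes are filled, all above 0, from 0.54 for Hsp90aa1 to 1.15 for Hspa1a.

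Between the populations of WT mice, 7 of 9 members were lower and 1 was higher in Flt3+ than in Flt3- GPs, where 61.9% of all genes were called, 39.2% lower and 22.6% higher. Hspa5 fell by 1.40 ± 0.05 log2 in WT Flt3+ GPs (2.64-fold lower, limma adjusted p = 1.03e-05) and Hspa1a by 1.16 ± 0.11 log2 (2.23-fold lower, limma adjusted p = 0.000343). Under normexp, whose offset by itself shrinks differences of its dim probe, Hspa1a was at -0.56 log2. Hspd1 fell by 0.54 ± 0.05, Hspe1 by 0.47 ± 0.06, Hsph1 by 0.45 ± 0.05, Hsp90aa1 by 0.42 ± 0.05 and Hsp90ab1 by 0.23 ± 0.05 log2, with limma adjusted p from 0.000179 for Hspd1 to 0.00756 for Hsp90ab1. Dnajb1 was the exception and rose by 0.19 ± 0.04 log2 (limma adjusted p = 0.00746). Hspa8 was at -0.28 ± 0.11 log2 (limma adjusted p = 0.0806). It passed with the experiment block (adjusted p = 0.0346), as the mean over its probes (-0.31 log2, 0.0024) and without WT Flt3+ replicate 1 (-0.44 log2, 0.00776).

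This contrast depended on how the arrays were scaled. The median over all genes was -0.12 log2 under the 75th percentile and -0.013 log2 under quantile normalization, and the share of calls that were higher in WT Flt3+ GPs was 36.6% under the 75th percentile and 50.5% under quantile normalization. The median over the members was -0.45 log2 under the 75th percentile and -0.11 log2 under quantile normalization. Relative to the median of all genes under the 75th percentile, Hspa5 was at -1.29, Hspa1a at -1.04, Hspd1 at -0.43, Hspe1 at -0.36, Hsph1 at -0.33, Hsp90aa1 at -0.31, Hspa8 at -0.16, Hsp90ab1 at -0.11 and Dnajb1 at 0.30 log2. Under quantile normalization the calls of Hsp90aa1 (-0.053 log2, adjusted p = 0.368), Hspe1 (-0.11, 0.114) and Hsp90ab1 (-0.047, 0.34) were lost. The calls of Hspa1a (-1.25 log2), Hspa5 (-1.10), Hspd1 (-0.17), Hsph1 (-0.23) and Dnajb1 (0.51) stayed, with Hspd1 and Hsph1 closer to 0 and Dnajb1 further from it by over 1.5 times. Hsp90ab1 was also lost without WT Flt3- replicate 1 (adjusted p = 0.0538), and Dnajb1 without WT Flt3- replicate 2 (adjusted p = 0.0509).

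**Figure D4:**
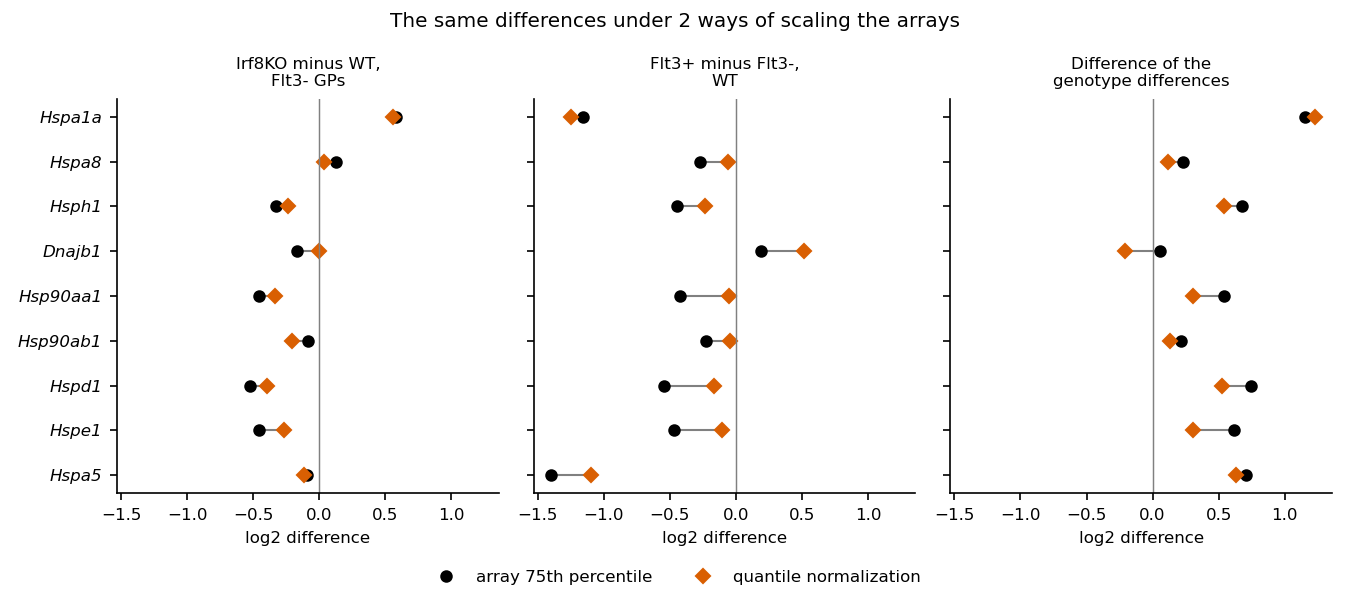
Log2 differences of the 9 measured genes with arrays scaled to their 75th percentile (circles) or by quantile normalization (diamonds), for Irf8KO minus WT in Flt3- GPs, for Flt3+ minus Flt3- GPs of WT mice, and for the difference of the genotype differences. In the middle panel Hsp90aa1 is at -0.42 under the first and -0.053 under the second, while Hspa5 is at -1.40 and -1.10.

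In Irf8KO Flt3+ against Irf8KO Flt3- GPs, 3 of 9 members were called higher and 1 lower, where 45.8% of all genes were called, 22.1% higher and 23.6% lower. Hspa5 fell by 0.69 ± 0.05 log2 in Irf8KO Flt3+ GPs (1.62-fold lower, limma adjusted p = 0.000188), a smaller difference than in WT mice by the test of the difference above. Dnajb1 rose by 0.24 ± 0.04 log2 (limma adjusted p = 0.0037), Hsph1 by 0.23 ± 0.05 (0.0127) and Hspd1 by 0.20 ± 0.05 (0.0127). The Hspd1 call was lost without Irf8KO Flt3+ replicate 1 (adjusted p = 0.0526), without Irf8KO Flt3+ replicate 2 (0.0686) and without Irf8KO Flt3- replicate 2 (0.0631). The Hsph1 call was lost without Irf8KO Flt3+ replicate 2 (adjusted p = 0.0739) and without Irf8KO Flt3- replicate 1 (0.0583). Hspa1a was at -0.0047 ± 0.11 log2 (limma adjusted p = 0.976). Under quantile normalization Hsp90aa1 (0.25 log2, adjusted p = 0.0064) and Hspe1 (0.20, 0.0217) were also called higher, which made 5 higher and 1 lower, and Hspd1 was at 0.36 log2. The median over the members was then 0.20 log2 between the Irf8KO populations and -0.11 log2 between the WT populations. In such signed medians opposite signs cancel, so they do not show in which genotype the populations were closer. The contrasts by genotype and by population use the same 8 arrays, so a low or high WT group enters more than 1 of them.

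A further 133 chaperone genes in 9 lists were described alongside the members, of which 125 were tested. In Irf8KO against WT Flt3+ GPs 31 were called higher and 8 lower, where 16.5% and 12.5% of all genes were, with a median of 0.09 log2 (23 and 13 under quantile normalization, median 0.026). In Irf8KO against WT Flt3- GPs 15 were called higher and 67 lower, where 16.5% and 27.2% of all genes were, with a median of -0.18 log2 (17 and 52 under quantile normalization). In WT Flt3+ against WT Flt3- GPs 8 were called higher and 95 lower, where 22.6% and 39.2% of all genes were, with a median of -0.39 log2 (16 and 66 under quantile normalization, median -0.20). In Irf8KO Flt3+ against Irf8KO Flt3- GPs 9 were called higher and 40 lower, where 22.1% and 23.6% of all genes were, with a median of -0.06 log2, which quantile normalization turned to 0.013 log2 (21 and 39). The difference of the genotype differences was called above 0 for 68 and below 0 for 4, where 21.4% and 9.45% of all genes were, with a median of 0.32 log2 against 0.07 log2 over all genes. Under quantile normalization 41 were called above 0 and 6 below, and the share of all calls above 0 was 51.4% in place of 69.4%. Counts in single lists stand against the same shares of all genes. In either direction 29% of all genes were called by genotype in Flt3+ GPs, close to the 39 of 125 here, and 43.6% in Flt3- GPs. In Flt3+ GPs the count of 39 called by genotype was 24 without WT Flt3+ replicate 1, 23 without Irf8KO Flt3+ replicate 1 and 15 without Irf8KO Flt3+ replicate 2. In Flt3- GPs the count of 82 was 52 without WT Flt3- replicate 2, and in the interaction the count of 72 was 45 without WT Flt3- replicate 1, 47 without WT Flt3- replicate 2 and 46 without Irf8KO Flt3+ replicate 2.

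The ER list held 24 genes of folding and of the unfolded protein response, and it was the list with the most calls above 0 by genotype in Flt3+ GPs. There 16 rose and 1 fell, where 16.5% and 12.5% of all genes did, with a median of 0.34 log2. The largest were Pdia4, a protein disulfide isomerase (1.05 ± 0.09 log2, limma adjusted p = 0.000796), and Ero1a, the oxidase that recharges such isomerases (0.93 ± 0.09, 0.00132). Sdf2l1, a luminal cofactor of BiP, rose by 0.67 ± 0.07 log2 (limma adjusted p = 0.00181), and Syvn1, the ubiquitin ligase of ER-associated degradation, by 0.61 ± 0.07 (0.00266). In Flt3- GPs the list was divided, with 10 higher and 8 lower in Irf8KO and a median of 0.07 log2 (11 and 4, median 0.17, under quantile normalization). The count of 17 called in Flt3+ GPs was 11 without Irf8KO Flt3+ replicate 2, and that of 18 in Flt3- GPs was 10 without WT Flt3- replicate 1, 9 without WT Flt3- replicate 2 and 9 without Irf8KO Flt3- replicate 2. In Irf8KO Flt3- GPs Ern1 and Eif2ak3, which encode the stress sensors IRE1 and PERK, rose by 0.62 ± 0.06 and 0.44 ± 0.10 log2 (limma adjusted p = 0.000751 and 0.014). Creld2 fell by 0.43 ± 0.04 log2 in Irf8KO Flt3- GPs (limma adjusted p = 0.000948).

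Between the WT populations 20 of the 24 ER genes were lower and 2 higher in Flt3+ GPs, with a median of -0.78 log2 (-0.71 under quantile normalization). Sdf2l1 fell by 2.11 ± 0.07 log2, Ero1a by 1.73 ± 0.09 and P4hb, a protein disulfide isomerase, by 1.59 ± 0.07 (limma adjusted p = 6.49e-06, 3.11e-05 and 1.49e-05). Trib3, a pseudokinase induced by ATF4 and CHOP, rose by 3.22 ± 0.17 log2 (limma adjusted p = 3.22e-05). Within Irf8KO 19 were lower and 1, again Trib3 (2.55 ± 0.17 log2, limma adjusted p = 0.000102), was higher in Flt3+ GPs, with a median of -0.55 log2. The genotype difference was larger in Flt3+ GPs for 13 of the 24 and smaller for 2 (8 and 2 under quantile normalization; 9, 8 and 9 called in all without WT Flt3- replicate 1, WT Flt3- replicate 2 and Irf8KO Flt3+ replicate 2), led by Sdf2l1 (0.92 ± 0.10 log2, limma adjusted p = 0.00333) and Creld2 (0.76 ± 0.06, 0.00156). Hsp90b1, the HSP90 of the ER, was among the 3 genes most like Hspa5 over the 8 arrays in 4 groups (Pearson's r = 0.998), after Ap3s1 (0.999) and Rpl36al (0.998), out of 14104 genes. Genes most like Hspa1a included Lpcat2 (r = 0.991) and Bphl (0.985), and those most like Hspd1 were Erh (0.994), Rrm2 (0.992) and Mapk1ip1l (0.992), each over the same 8 arrays and given as a description.

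The list of HSP90 family members and cochaperones had 21 genes. By genotype 5 rose and 0 fell in Flt3+ GPs, where 29% of all genes were called, 16.5% higher and 12.5% lower. In Flt3- GPs 0 rose and 13 fell, where 43.6% of all genes were called, 16.5% higher and 27.2% lower. The count of 5 was 1 without WT Flt3+ replicate 1 or without Irf8KO Flt3+ replicate 2, and 2 without Irf8KO Flt3+ replicate 1 or either WT Flt3- array. Hsp90b1 rose by 0.46 ± 0.06 log2 in Irf8KO Flt3+ GPs (limma adjusted p = 0.00363). In Irf8KO Flt3- GPs the largest falls were of Cacybp, by 0.57 ± 0.05 log2, of the p23 cochaperone gene Ptges3, by 0.53 ± 0.05, and of Ahsa1, which stimulates the HSP90 ATPase, by 0.45 ± 0.05 (limma adjusted p = 0.000762, 0.000694 and 0.00109). In WT Flt3+ against WT Flt3- GPs 0 were higher and 18 lower, led by Hsp90b1 at -1.22 ± 0.06 log2 (limma adjusted p = 2.32e-05), and in Irf8KO 1 was higher and 3 lower. Under quantile normalization 1 was higher and 9 lower between the WT populations. The genotype difference was larger in Flt3+ GPs for 15 and smaller for 0 (10 and 0 under quantile normalization), a count that was 9 without WT Flt3- replicate 2, Irf8KO Flt3+ replicate 2 or Irf8KO Flt3- replicate 2.

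TRiC is the chaperonin of the cytosol, which folds actin and tubulin among others, and prefoldin hands it clients. Of 14 genes 0 rose and 13 fell in Irf8KO Flt3- GPs, where 16.5% and 27.2% of all genes did, with a median of -0.37 log2. Among them were the TRiC subunits Cct6a (-0.56 ± 0.06 log2, limma adjusted p = 0.00107), Cct8 (-0.54 ± 0.05, 0.000882) and Cct3 (-0.51 ± 0.05, 0.000934). Without WT Flt3- replicate 2 the count of 13 was 8. In Flt3+ GPs 1 was called in each direction, and 0 to 2 in all with single arrays left out. In WT Flt3+ against WT Flt3- GPs 0 were higher and 13 lower, in Irf8KO 1 was called in each direction, and the genotype difference was larger in Flt3+ GPs for 11 and smaller for 0. Under quantile normalization 10 of 14 still fell by genotype in Flt3- GPs, 6 were lower and 1 higher between the WT populations, and the genotype difference was larger for 6. Of 12 genes of mitochondrial protein quality control, 8 fell and 0 rose in Irf8KO Flt3- GPs (5 and 0 under quantile normalization), led by the prohibitin gene Phb (-0.61 ± 0.06 log2, limma adjusted p = 0.00101). In Flt3+ GPs 2 of them rose (1 with the experiment block, 1 to 4 with single arrays left out) and 0 fell. In WT Flt3+ against WT Flt3- GPs 11 fell and 0 rose, led by the protease gene Htra2 (-0.84 ± 0.04 log2, limma adjusted p = 2.64e-05). Under quantile normalization 8 fell and 1 rose there, and the list median was -0.24 in place of -0.43 log2.

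Among 9 other HSP70 and HSP110 genes tested, 3 rose and 3 fell by genotype in Flt3+ GPs (2 called without Irf8KO Flt3+ replicate 2), and 0 rose and 4 fell in Flt3- GPs. Hyou1, the HSP110 of the ER, rose by 0.38 ± 0.08 log2 in Irf8KO Flt3+ GPs (limma adjusted p = 0.0189) and fell by 1.37 ± 0.08 log2 in WT Flt3+ against WT Flt3- GPs (4.44e-05). Hspa4, a cytosolic HSP110, and Hspa9, the mitochondrial HSP70, fell by 0.70 ± 0.04 and 0.39 ± 0.04 log2 in Irf8KO Flt3- GPs (limma adjusted p = 0.000286 and 0.0014). Hspa12b was higher in WT Flt3+ than in WT Flt3- GPs by 1.42 ± 0.08 log2 (limma adjusted p = 3.19e-05), 1 of 9, while 7 were lower. Of 23 J-domain genes tested, 3 rose and 2 fell by genotype in Flt3+ GPs (1 and 6 under quantile normalization). In Flt3- GPs 3 rose and 11 fell (4 and 9). The shares of all genes called by genotype were 29% in Flt3+ GPs and 43.6% in Flt3- GPs. The count of 5 in Flt3+ GPs was 0 without Irf8KO Flt3+ replicate 2 and 2 to 4 without each of the other arrays, and that of 14 in Flt3- GPs was 9 without WT Flt3- replicate 2. Dnaja4 was the largest in both, at -0.88 ± 0.15 log2 in Flt3+ and -0.95 ± 0.15 log2 in Flt3- GPs (limma adjusted p = 0.00969 and 0.0044). Dnajb11 and Dnajc3, J-domain partners of BiP, fell by 1.07 ± 0.04 and 0.94 ± 0.08 log2 in WT Flt3+ against WT Flt3- GPs (limma adjusted p = 1.09e-05 and 0.000162).

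Of 10 nucleotide exchange factors, 1 rose and 1 fell by genotype in Flt3+ GPs and 0 rose and 7 fell in Flt3- GPs (0 to 3 and 4 to 7 called with single arrays left out), with Bag2 at -0.55 ± 0.06 log2 (limma adjusted p = 0.00134). The shares of all genes called by genotype were 29% in Flt3+ GPs and 43.6% in Flt3- GPs. Small heat shock proteins were little measured. Of 10 genes 5 passed the filter, and 0 of these were called by genotype in Flt3+ GPs and 1, Hspb11, in Flt3- GPs (0.31 ± 0.10 log2, limma adjusted p = 0.0474, not called with the experiment block). Of the 7 heat shock factor and regulator genes tested, 0 were called by genotype in Flt3+ GPs. In Flt3- GPs Hsf2 fell by 0.34 ± 0.07 log2 (limma adjusted p = 0.014), and Hsf1, the main heat shock factor, was lower in WT Flt3+ than in WT Flt3- GPs by 0.17 ± 0.05 log2 (limma adjusted p = 0.0196), a call lost under quantile normalization (-0.0060 log2, adjusted p = 0.913). Serpinh1, the collagen chaperone HSP47, was not well above background on any WT Flt3- array. It was at least 1.81-fold higher in Irf8KO Flt3- than in WT Flt3- GPs (limma adjusted p = 0.00238) and at least 6.18-fold higher in WT Flt3+ than in WT Flt3- GPs (5.25e-05).

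**Figure D5:**
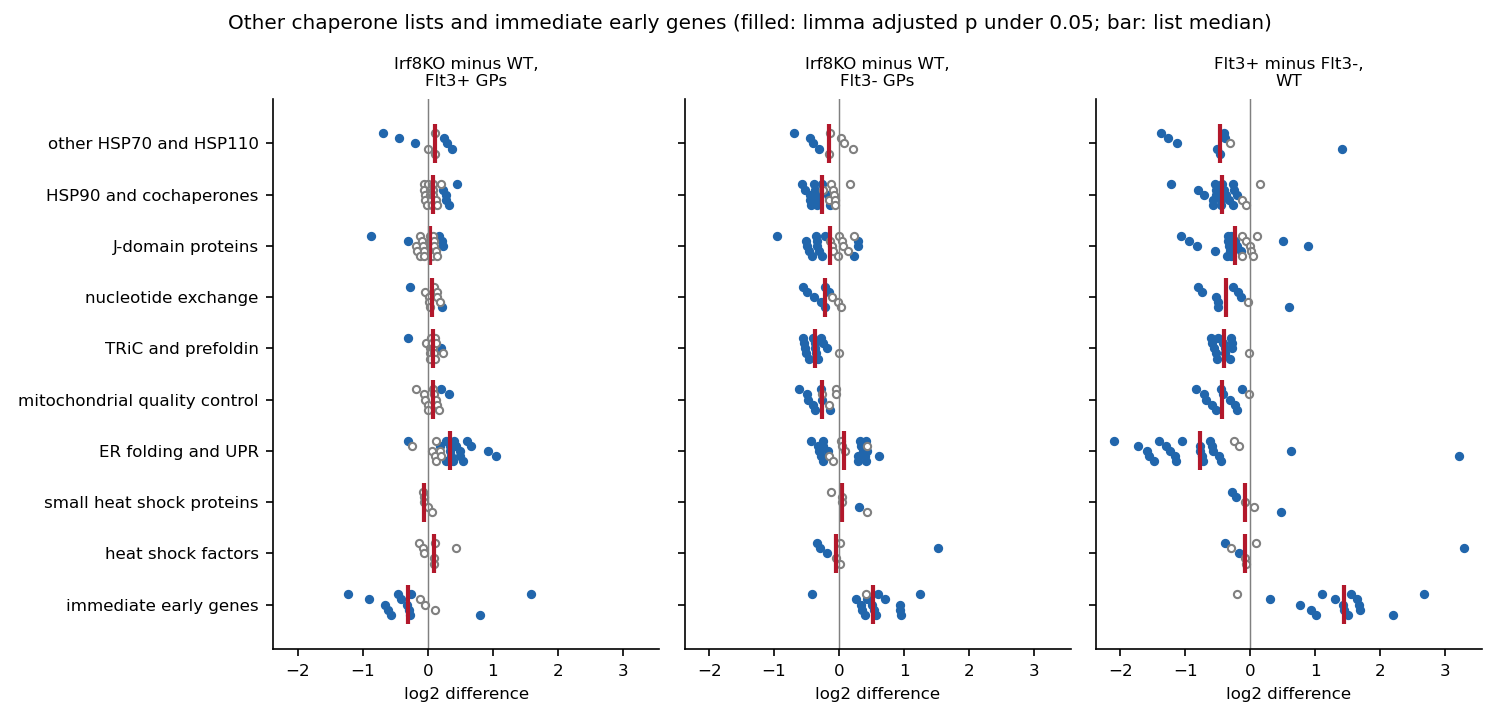
Log2 differences of the single genes of 9 other chaperone lists and of immediate early genes in 3 contrasts, named above the panels. Each point is a gene, filled points passed limma at adjusted p under 0.05, and red bars are list medians; for the ER list the medians are 0.34, 0.07 and -0.78 from left to right, and for TRiC and prefoldin 0.08, -0.37 and -0.41.

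Markers of other cells and of handling differed between the same groups. Immediate early genes, which respond within minutes to cell handling as well as to signals, had 16 of 18 genes tested, and their summed signal, in multiples of the 75th percentile, was 71.4 to 71.7 in Irf8KO Flt3+, 93.9 to 94.0 in WT Flt3+, 49.6 to 51.2 in Irf8KO Flt3- and 34.8 to 35.5 in WT Flt3- GPs. By genotype 2 rose and 11 fell in Flt3+ GPs, and 14 rose and 1 fell in Flt3- GPs, the opposite order to that of most members. For this and the marker counts below, 29% of all genes were called by genotype in Flt3+ GPs and 43.6% in Flt3- GPs. The count of 13 in Flt3+ GPs was 8 without Irf8KO Flt3+ replicate 2. The 6 erythroid markers tested all fell in both populations, with sums of 2.01 to 2.05 in Irf8KO Flt3+ against 19.4 to 19.7 in WT Flt3+ GPs and 1.00 to 1.03 in Irf8KO Flt3- against 7.71 to 7.75 in WT Flt3- GPs. Of these 6, 1 was not well above background on any Irf8KO Flt3- array. The 6 mature neutrophil markers tested all rose, with sums of 4.09 to 4.11 in Irf8KO Flt3+ against 1.36 to 1.37 in WT Flt3+ GPs and 3.74 to 3.89 in Irf8KO Flt3- against 1.53 to 1.66 in WT Flt3- GPs. The 6 granulocyte progenitor markers, most of which encode granule proteins, summed to 1180 to 1194 in Irf8KO Flt3+ against 668 to 750 in WT Flt3+ GPs and 2449 to 2686 in Irf8KO Flt3- against 2099 to 2233 in WT Flt3- GPs. This is the order of the groups' Hspa5 values except within Flt3- GPs. Lymphoid markers summed to 246 to 266 in Irf8KO Flt3+ against 136 to 144 in WT Flt3+ GPs and 7.56 to 7.82 in Irf8KO Flt3- against 6.08 to 6.22 in WT Flt3- GPs, and 2 of 8 were not well above background in either Flt3- group. The 7 markers of eosinophils, basophils and mast cells summed to 3.41 to 3.49 in Irf8KO Flt3+ against 8.79 to 9.27 in WT Flt3+ GPs and 26.4 to 26.8 in Irf8KO Flt3- against 67.5 to 68.6 in WT Flt3- GPs. They were highest in WT Flt3- GPs, and all 7 were lower in WT Flt3+ than in WT Flt3- GPs. Under the 75th percentile the means of Hspa5, Hsph1, Hsp90aa1, Hsp90ab1, Hspd1 and Hspe1 were also highest in WT Flt3- GPs. Of the eosinophil, basophil and mast cell markers, counts and dim genes were as follows. By genotype 1 rose and 5 fell in Flt3+ GPs and 0 rose and 6 fell in Flt3- GPs, and 2 in Irf8KO Flt3+ and 1 in WT Flt3+ GPs were not well above background. The 6 megakaryocyte and platelet markers summed to 1.74 to 1.78 in Irf8KO Flt3+ against 6.21 to 6.61 in WT Flt3+ GPs and 3.16 to 3.25 in Irf8KO Flt3- against 5.46 to 5.54 in WT Flt3- GPs, with 0 higher and 5 lower by genotype among Flt3+ GPs, and with 1 higher and 3 lower among Flt3- GPs. The 6 monocyte markers summed to 141 to 146 in Irf8KO Flt3+ against 81.6 to 84.8 in WT Flt3+ GPs and 149.3 to 150 in Irf8KO Flt3- against 76.2 to 76.4 in WT Flt3- GPs, with 4 higher and 1 lower among Flt3+ GPs, and with 4 higher and 2 lower among Flt3- GPs. Single monocyte markers ranged by genotype from -8.46 to 2.19 log2 in Flt3+ and from -8.08 to 2.10 log2 in Flt3- GPs. The sums do not show this spread. The 6 dendritic cell markers tested summed to 296 to 301 in Irf8KO Flt3+ against 254 to 287 in WT Flt3+ GPs and 231 to 248 in Irf8KO Flt3- against 186 to 200.2 in WT Flt3- GPs, with 1 higher and 2 lower among Flt3+ GPs, and with 3 higher and 1 lower among Flt3- GPs. This list includes Flt3, by which the cells were sorted, so the difference of its sums between Flt3+ and Flt3- GPs was partly set by the sort. The part of all these cell and handling markers in the chaperone values was not tested. In bulk samples, fewer cells of a type and less RNA per cell cannot be told apart.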

How the data were processed

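RNA of 8 samples was measured on one-colour Agilent arrays. Titles gave the groups and experiment numbers. Spot intensities are linear and, per the file headers, were made with Agilent Feature Extraction 10.7.3.1. They were deposited without scaling between arrays, and the 0 or 1 flags of each spot were deposited with them. The series table deposited by the authors equals these intensities multiplied array by array by a constant (0.672 to 1.33), so it is linear and not centred, with column medians of 26.9 to 29.9. No source used here says how it was made, and it served as an alternative only.

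Here, control spots and outlier spots (93 to 178 per array) were dropped, replicate spots were averaged, and log2 intensities were taken minus the 75th percentile of the array (361 to 713). A probe had to be well above background in both arrays of some group. Of 55681 probes 26762 were named by RefSeq accession (GRCm38.p6 table). The probe with the highest mean stood for its gene. limma 3.58.1 in R 4.3.3 fitted 1 mean per group with empirical Bayes moderation (residual df 4, prior df 1.76). The fit was tested on simulated data. A fold against a group below background is a lower bound, set against the higher of the lowest signal well above background and the probe's own.

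The members and lists were chosen with earlier results of these data known. Named genes were all members and, for each list and comparison, up to 4 called genes with the largest difference. The experiment number pairs samples, per the labels. Deviations of same-numbered arrays correlated at -0.028 to 0.123. Alternatives were quantile normalization, normexp, other filters, other arrays in the fit, the experiment as a block, the mean over probes, the deposited table, each array left out and, chosen after seeing the data, median centring. Normexp used an offset of 50 and median spot signals, since mean spot signals were not used here. Arrays of a group correlated at r = 0.9958 to 0.9975 across genes, and their median SD was 0.039 to 0.070 log2. Promoter windows came from RefSeq (GRCm38.p6), with 7 of 10 members matched.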

Additional observations from a re-analysis of the deposited data

Results flagged for a closer look

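For 6 members the genotype difference in Flt3+ GPs differed from that in Flt3- GPs by the interaction term of the limma fit. The values, Flt3+ minus Flt3-, were 1.15 log2 for Hspa1a, 0.75 for Hspd1, 0.71 for Hspa5, 0.68 for Hsph1, 0.62 for Hspe1 and 0.54 for Hsp90aa1. Their limma adjusted p ran from 0.00188 for Hspd1 to 0.00575 for Hspa1a and Hspe1. For Hsph1 and Hspd1 both single differences were called and had opposite signs. For Hspa1a both were called and had the same sign, and for Hspa5, Hspe1 and Hsp90aa1 1 of the 2 was called. The Hspd1 call in Flt3+ GPs was lost under quantile normalization, under normexp and in other refits. That of Hspa1a in Flt3- GPs was lost in some refits, as given above. Groups of 2 arrays are too small for a search for outlying arrays.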

How the results depend on the processing

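Of 756 refits of single members, 700 kept direction and side of the threshold, 24 lost the call, 20 gained it and 12 changed sign, 0 of them from a called value. The cause was not tested. Sign changes by genotype were, in Flt3+ GPs under quantile normalization, Hsp90aa1 at -0.034 and Hsp90ab1 at -0.076 log2, and in Flt3- GPs under the mean over probes, Hspa8 at -0.066. Between Irf8KO populations they were Hspa8 at 0.054 and Hsp90ab1 at 0.082 (quantile), Hspa8 at 0.021 (normexp) and 0.11 (mean over probes), Hspa1a at 0.0035 (median centring), Hspa1a at -0.040 to 0.031 and Hsp90ab1 at -0.025 to 0.0035 (single arrays left out), and for the interaction Dnajb1 at -0.21 (quantile). Under quantile normalization 5 members in place of 8 were called between WT populations, and 47 other chaperone genes in place of 72 in the interaction. By genotype in Flt3+ GPs 39 other chaperone genes became 25 without a filter and 19 with only the groups compared, and all genes called, 4088, became 2679 and 2665. The interaction's 4354 became 2725 without a filter. With single arrays left out, members called were 3 to 4 and 4 to 6 by genotype in Flt3+ and Flt3- GPs, 7 to 9 and 2 to 4 between WT and between Irf8KO populations, and 6 to 8 in the interaction. Other chaperone genes were 15 to 39, 52 to 84, 92 to 101, 46 to 49 and 45 to 73 in that order, and all genes 2002 to 3678, 4054 to 6442, 7190 to 8552, 4936 to 6815 and 2515 to 4415. The experiment block (replicate block) changed 3 member calls, Hspa8 at 0.36 and -0.28 and Hsp90ab1 at 0.22 in the interaction, and no other member call; between Irf8KO populations it moved small heat shock proteins to 2 and heat shock factors to 3 called. The interaction has no fit of only the groups compared. Slide and scan could not be a block, since there was 1 of each. Dim probes such as that of Hspa1a limit what signal over background allows.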
